A study of Mus musculus with 16 samples.

Results

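The genes described here encode histone-modifying enzymes and chromatin remodellers of the mouse two-cell embryo. They were chosen by symbol: each probe set that the platform annotation gives a single gene symbol, where that symbol begins with Kdm, Kmt2, Hdac, Setd, Smarca to Smarce, Chd and a digit, Prmt, Ehmt, Suv39h or Kat and a digit, or is Ezh1, Ezh2, Eed or Suz12. The rule found 90 genes with 223 probe sets, of 18193 genes with 45037 probe sets on the array. Only probe sets that reached the 40th percentile of intensity on 4 or more of the 16 arrays were tested, and 88 of the 90 genes, with 188 probe sets, had one that did. The exceptions were Prmt8 and Smarca1, and Suv39h1, which the rule covers, had no probe set among these. Values of a gene below are those of its brightest tested probe set on average. The tested families are the histone deacetylases (Hdac, 11 genes), lysine acetyltransferases (Kat, 8), lysine demethylases (Kdm, 18) and the MLL methyltransferases (Kmt2, 5). Next are SET-domain methyltransferases (Setd, 10), the histone H3 lysine 9 methyltransferases Ehmt1, Ehmt2 and Suv39h2 (3) and arginine methyltransferases (Prmt, 7). The core of Polycomb repressive complex 2 (PRC2, 4) is another. The last are the Smarc genes (12), among them SWI/SNF and ISWI remodeller subunits, and the CHD remodellers (Chd, 10).

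Total RNA was measured on 16 one-colour arrays, 4 in each of 4 groups. BCB embryos carried a C3H maternal pronucleus in B6 ooplasm beside a B6 paternal pronucleus, and were given α-amanitin (the labels write α-amantin), which blocks RNA polymerase II, or left untreated. BBB embryos had B6 ooplasm and B6 pronuclei of both parents, again with amanitin or untreated. The groups therefore shared the ooplasm strain and the paternal pronucleus. The labels give no dose, treatment time, number of embryos per sample or origin of the replicates, and p-values therefore reflect only how far these samples vary, which may be technical. These are bulk samples of embryos, in which fewer cells of a type and less RNA per cell cannot be told apart.

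Chromatin is opened and closed by enzymes that add or remove acetyl and methyl groups on histone tails and by remodellers that use ATP to slide, evict or exchange nucleosomes. Acetylation by Kat enzymes and methylation of lysine 4 of histone H3 by the Kmt2 and Setd1 enzymes mark active genes, while methylation of lysine 9 and, through PRC2, lysine 27 mark silenced ones, and the Hdac and Kdm enzymes take such marks away. The mouse embryo inherits many of these transcripts from the oocyte and begins its own transcription at the end of the one-cell and during the two-cell stage, when maternal RNA is also degraded. Because amanitin blocks RNA polymerase II, treated embryos are used to ask which transcripts of the untreated embryo depend on its own transcription.

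The arrays were scaled by the authors to a common total, with the mean of the values between the lowest and highest 2% the same on each of the 16 arrays. Every change below is therefore relative to the bulk of the array. Added controls shifted with treatment: the poly-A control probe sets, which mark RNA spiked before labelling, were higher with amanitin by 1.59 in BCB and 1.56 in BBB on the log2 scale, and the hybridization controls by 0.78 and 0.53. The probe sets of 18S ribosomal RNA, which is the embryo's own and no added control, were higher by 1.62 and 1.26. With the poly-A controls as the scale, all genes tested had a median change with amanitin of −0.91 in BCB and −0.94 in BBB, and with the hybridization controls of −0.34 and −0.23, against 0.17 and 0.11 on the authors' scale. The 7 markers of two-cell genome activation summed to an intensity of 694.5 to 924.4 with amanitin and 14647 to 16016 untreated in BCB, and to 627.4 to 899.4 and 14842 to 16341 in BBB. The 6 oocyte transcripts summed to 19548 to 22735 with amanitin and 9618 to 11046 untreated in BCB, and to 23329 to 25136 and 9110 to 11125 in BBB. Cumulus and granulosa markers (9 genes) summed to 213.8 to 277 with amanitin and 103.5 to 139.4 untreated in BCB, and to 179.4 to 235 and 104.3 to 138.9 in BBB, with 4 of the 9 above the 40th percentile on every treated array and 2 on every untreated one. Sperm markers (6 genes) summed to 90.3 to 132.3 and 58.3 to 73.2 in BCB and to 84.5 to 115.3 and 48 to 106.6 in BBB. The part of other cells' RNA in the results was not tested. Correlations between arrays across genes were 0.976 to 0.990 within groups and 0.764 to 0.815 between treated and untreated arrays.

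Amanitin moved chromatin genes in both directions, and the falls were the larger changes, as they were among all genes tested. The 10th and 90th percentiles of the change in BCB were −2.67 and 1.07, beside −2.14 and 1.24 over all genes. They were −2.39 and 1.05 in BBB, beside −2.13 and 1.25. In BCB, 40 of the 88 genes fell and 31 rose (limma, adjusted p under 0.05), which is 45.5% and 35.2% of them beside 31.9% and 39.9% of all 15274 genes tested. In BBB, 36 fell and 27 rose, 40.9% and 30.7% beside 33.1% and 37.1% of all genes. Called changes of at least 2-fold, taken on the log2(intensity + 16) scale, were 21 falls and 11 rises in BCB. That is 23.9% and 12.5%, beside 21.1% and 16.2% of all genes. BBB had 19 such falls and 12 such rises (21.6% and 13.6%, beside 21.9% and 15.9%). The shares of large changes were thus near those of the genes at large. The median change of the 88 genes was −0.07 in BCB and −0.09 in BBB, against 0.17 and 0.11 over all genes.

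The 4 deepest falls in both kinds, on the log2(intensity + 16) scale, were those of Prmt6 (−5.88 in BCB and −5.49 in BBB), Kdm5b (−4.62 in BCB and −4.36 in BBB), Hdac1 (−4.17 in BCB and −3.96 in BBB) and Kdm5a (−3.23 in BCB and −3.48 in BBB). The order rests on that scale and on the probe set read. As a ratio of mean intensities, Kdm4c, which was near the dim end with amanitin, was 26.2-fold lower in BCB, beside 21.8-fold for Hdac1 and 14.8-fold for Kdm5a. With a gene's probe sets averaged, Prmt6 changed by −3.62 in BCB and −3.27 in BBB and Kdm5b by −2.24 and −2.37. Hdac1, with 1 probe set, was then deeper than both. The 4 largest rises in BCB were those of Kat6a (2), Smarcal1 (1.83), Chd4 (1.72) and Chd6 (1.53). In BBB, Smarcal1 (2.05), Chd6 (1.64) and Chd9 (1.41) led, and Kat6a and Chd4 stood lower in the order (1.19 and 1.01). By family, the Kdm, Setd, Prmt and PRC2 genes had medians below 0 on the authors' scale in both kinds. The Chd, Hdac and Kmt2 genes and the Ehmt and Suv39h genes had medians above 0 in both kinds. With every tested probe set counted, the Chd median was 0.43 in BCB and 0.06 in BBB. The PRC2 median was then above 0, at 0.79 and 0.72. After quantile normalization the Prmt median was 0 in BBB. The Kdm and Setd medians stayed below 0 after quantile normalization and with arrays centred on their medians. They also did on the scales of added controls, which lower every change. The Chd median turned to −0.6 in BCB and −0.71 in BBB on the poly-A scale.

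**Figure D1:**
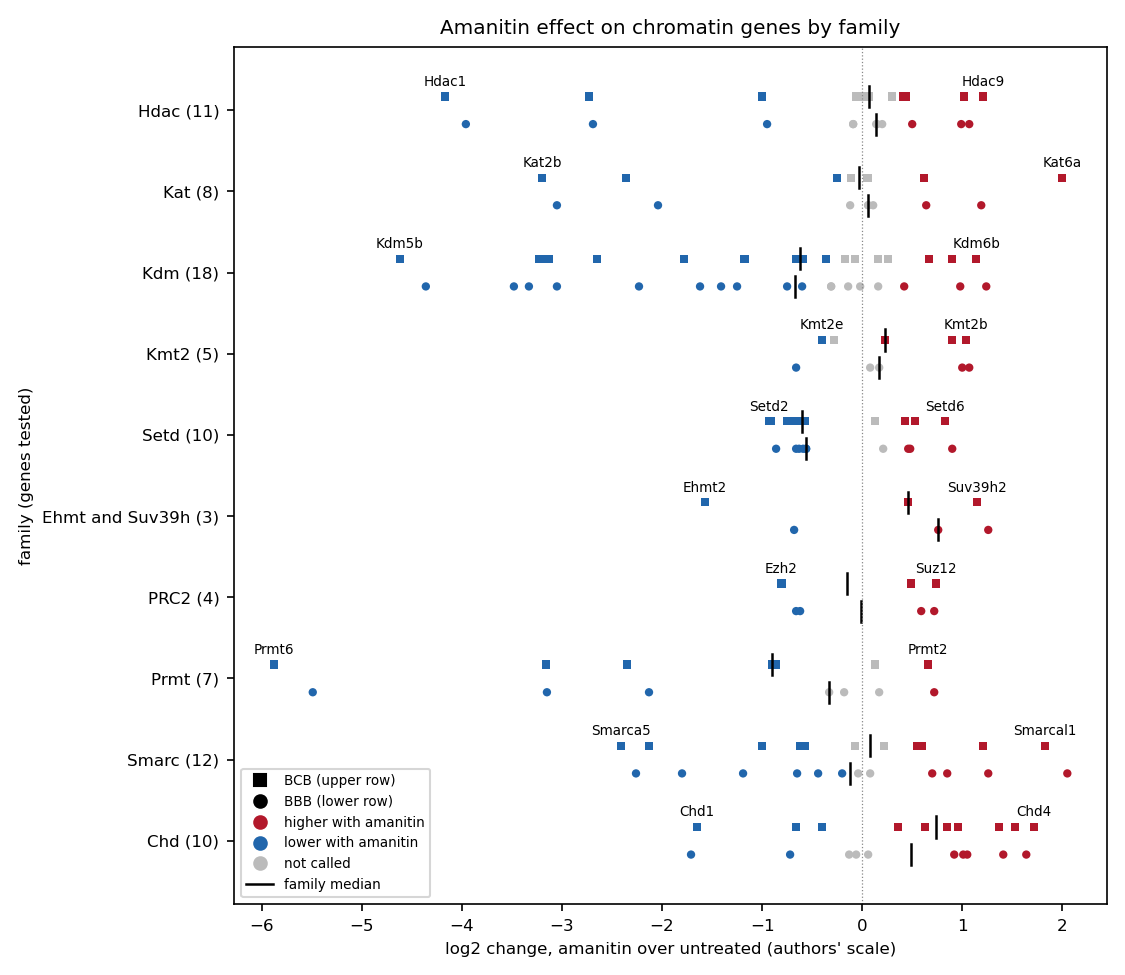
Change with amanitin of each of the 88 tested genes, by family (rows, with the number of genes), on the log2(intensity + 16) scale as the authors scaled the arrays; in each family the upper row of squares is BCB and the lower row of circles is BBB, a black bar is the family median, and the genes named are the lowest and highest in BCB. Prmt6 lies at −5.88 in BCB and −5.49 in BBB, and the falls reach much farther from 0 than the rises, which end at 2 and 2.05; on the poly-A scale all but 1 of the rises in each kind are lost or turned.

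Most rises did not hold when arrays were scaled to added controls. These controls were higher with amanitin, so this scaling lowers each gene's change and could not turn a fall. It is therefore no check on the falls. All 40 falls in BCB and all 36 in BBB were also called lower when arrays were scaled to the hybridization controls or to the poly-A controls. Of the rises, 9 of 31 in BCB and 17 of 27 in BBB stayed called higher on the hybridization scale. On the poly-A scale a single gene remained in each kind, Kat6a at 0.48 in BCB and Smarcal1 at 0.55 in BBB, while 22 and 19 of the rises were called lower. Leaving out the poly-A probe sets of Trpn, which read at most 11.8 on any array, 80 genes in BCB and 84 in BBB were called lower and none higher. Under all 6 scalings, 36 genes were called lower in BCB and 30 in BBB, and none higher. Words such as rose refer below to the authors' scale.

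**Figure D2:**
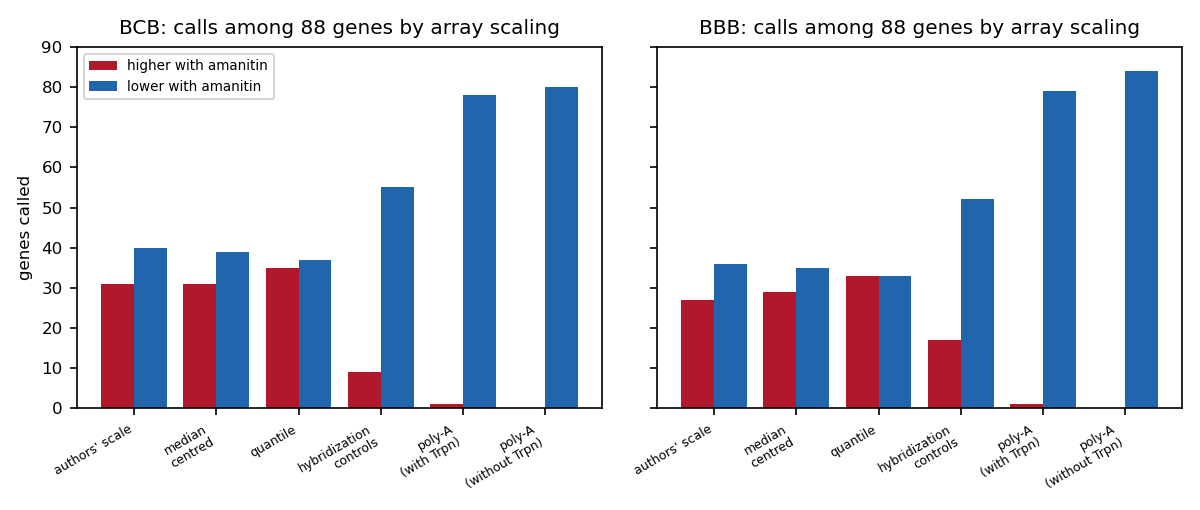
Number of the 88 genes called higher (red) and lower (blue) with amanitin in BCB (left panel) and BBB (right panel) under 6 ways of scaling the arrays, limma adjusted p under 0.05. The lower calls are 40 in BCB and 36 in BBB on the authors' scale and 78 and 79 on the poly-A scale, where 1 gene in each kind stays higher.

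RefSeq promoters of the GRCm38.p6 assembly, from 250 bases before to 50 after the start, were found for 71 of the 88 genes, with 91 promoters in all. Those of Prmt6 and Kdm5b, the deepest falls by brightest probe set, and of Smarcal1 and Chd6, rises in both kinds, are shown 5′ to 3′. This lets the opposed genes be read side by side. Capitals mark matches, on either strand, to any of 5 motifs. The GC box was searched as GGGCGG, the CCAAT box as CCAAT and the TATA box as TATAAA, while the motif of ETS factors was searched as CCGGAAG and the E-box as CACGTG. No matches overlap in these 4 windows. Their positions are chr3:110250950-110251249, minus strand for Prmt6, chr1:134559928-134560227, plus strand for Kdm5b, chr1:72583001-72583300, plus strand for Smarcal1 and chr2:161109037-161109336, minus strand for Chd6.
Prmt6: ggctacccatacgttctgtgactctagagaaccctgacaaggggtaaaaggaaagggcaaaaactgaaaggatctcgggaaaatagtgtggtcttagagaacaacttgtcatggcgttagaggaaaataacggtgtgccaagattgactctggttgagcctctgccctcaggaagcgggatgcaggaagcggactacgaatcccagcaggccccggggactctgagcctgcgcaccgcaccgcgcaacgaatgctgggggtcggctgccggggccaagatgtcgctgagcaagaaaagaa
Kdm5b: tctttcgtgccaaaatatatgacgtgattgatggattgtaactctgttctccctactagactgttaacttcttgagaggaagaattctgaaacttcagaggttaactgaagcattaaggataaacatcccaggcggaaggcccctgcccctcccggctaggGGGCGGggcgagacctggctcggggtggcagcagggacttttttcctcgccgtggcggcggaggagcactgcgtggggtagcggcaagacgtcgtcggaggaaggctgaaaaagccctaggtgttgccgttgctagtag
Smarcal1: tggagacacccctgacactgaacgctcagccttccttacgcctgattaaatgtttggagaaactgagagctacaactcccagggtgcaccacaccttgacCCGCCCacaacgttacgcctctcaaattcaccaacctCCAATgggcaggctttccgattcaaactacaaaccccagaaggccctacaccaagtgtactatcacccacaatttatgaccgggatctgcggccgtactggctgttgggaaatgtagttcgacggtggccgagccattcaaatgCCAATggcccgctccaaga
Chd6: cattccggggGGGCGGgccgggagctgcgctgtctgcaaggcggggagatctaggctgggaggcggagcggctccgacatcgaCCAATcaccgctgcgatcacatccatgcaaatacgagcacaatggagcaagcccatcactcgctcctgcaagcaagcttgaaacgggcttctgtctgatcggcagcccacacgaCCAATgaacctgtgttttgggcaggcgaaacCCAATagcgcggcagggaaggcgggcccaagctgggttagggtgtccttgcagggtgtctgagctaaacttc
Prmt6 held none of the 5 motifs, Kdm5b 1 GC box, Smarcal1 1 GC box and 2 CCAAT boxes, and Chd6 1 GC box and 3 CCAAT boxes. Of the 91 promoters, 63.7% held a GC box, beside 35.7% of all 32851 promoters in the table, 39.6% held CCAAT beside 37.4%, and 5.49% held TATAAA beside 13.6%. The ETS motif was in 15.4% beside 8.86% and the E-box in 8.79% beside 7.15%. Promoters of genes that fell in BBB held a GC box in 52.6% (20 of 38) and had a median of 20.5 CpG dinucleotides, while those of genes that rose held one in 66.7% (18 of 27) with a median of 28, and those not called in 76.9% (20 of 26) with 26.5. The median over all promoters was 7 CpG dinucleotides, and the median G and C content was 62.7% in the 91 promoters and 52.7% in all. These counts describe the windows, and no match is a tested site.

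Among the deacetylases, which remove acetyl groups from histones and other proteins, Hdac1, Hdac6 and Hdac5 fell and Hdac9, Hdac3 and Hdac7 rose in both kinds, with Hdac10 also higher in BCB. That is 4 higher and 3 lower of 11 in BCB (median 0.07) and 3 and 3 in BBB (median 0.14); on the hybridization scale 1 was higher and 6 lower in BCB and 2 and 5 in BBB, and on the poly-A scale none was higher. Hdac1 and Hdac2 are the paired class I enzymes of the NuRD, Sin3 and CoREST complexes. Hdac1 read 79.2, 77.8, 62.5 and 59.4 in BCB with amanitin, against 1415.3, 1545.5, 1520.4 and 1586.8 in untreated BCB. In BBB, Hdac1 read 83.8, 56.3, 79.7 and 27 with amanitin, against 1126.6, 1160.3, 1110.0 and 1150.7 untreated. The 8 treated arrays all lay below the 8 untreated ones, and the change was −4.17 in BCB (SE 0.18, adjusted p = 1.12e-15) and −3.96 in BBB (SE 0.18, adjusted p = 2.88e-15). Hdac2 read 1408.3, 1534.9, 1499.1 and 1355.7 in BCB with amanitin, against 1452.5, 1359.7, 1428.9 and 1266.8 in untreated BCB. In BBB, Hdac2 read 1415.9, 1316.3, 1607.6 and 1370.9 with amanitin, against 1556.0, 1407.9, 1633.8 and 1494.6 untreated. These groups overlapped, and no change was called (0.07 in BCB and −0.09 in BBB); a dimmer tested probe set of Hdac2 was called lower in BBB, at −0.48, and so was the brighter one after quantile normalization, at −0.31. The mean of Hdac1 was 21.8-fold lower with amanitin in BCB and 18.4-fold lower in BBB.

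Hdac6, the X-linked deacetylase of tubulin, read 78.4, 72.2, 111.0 and 105.9 in BCB with amanitin, against 674.6, 655.1, 818.4 and 630.8 in untreated BCB. In BBB, Hdac6 read 149.6, 89.6, 82.3 and 79.3 with amanitin, against 861.3, 703.4, 675.6 and 642.4 untreated. It fell, at −2.73 in BCB and −2.69 in BBB, with no overlap between treated and untreated arrays. Hdac3, the enzyme of the NCoR and SMRT co-repressors, averaged 121 ± 45.3 with amanitin and 49.6 ± 14.3 untreated in BCB, and 116 ± 21.4 and 49.9 ± 9.05 in BBB (SD, n = 4), a change of 1.02 in BCB and 0.99 in BBB; the arrays of BCB overlapped and those of BBB did not. Hdac9, of class IIa, averaged 392 ± 51.4 with amanitin and 159 ± 13.2 untreated in BCB, and 410.4 ± 55.1 and 186 ± 25.8 in BBB, and was higher on all treated arrays (1.21 in BCB and 1.07 in BBB). The class IIa relatives Hdac5 (−1 in BCB and −0.95 in BBB, called lower), Hdac7 (0.44 in BCB and 0.5 in BBB, called higher) and Hdac4 (−0.01 in BCB and 0.15 in BBB, not called) spread over both directions. The calls of Hdac7 were lost without any of untreated BCB arrays 1, 2 and 3, treated BCB arrays 1, 3 and 4 or untreated BBB array 4 (0.36 to 0.44 in BCB), and without untreated BBB array 1 or treated BBB array 3 or 4 (0.35 to 0.46 in BBB), and the call in BBB also with its probe sets averaged (0.31). Hdac10 averaged 43.8 ± 8.65 with amanitin and 29 ± 6.98 untreated in BCB, and 41.6 ± 12.6 and 35.9 ± 8.91 in BBB (SD, n = 4), and its call in BCB (0.41) was lost when any of 11 of the 16 arrays was left out (0.33 to 0.42). Hdac8 and Hdac11 did not pass the test in either kind, and Hdac8 stayed at means of 8.58 to 15.8, at the dim end of the arrays; without treated BCB array 3 it was called higher in BCB (0.45).

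The acetyltransferases held 2 large falls and 2 rises, with the others within 0.25 of 0 in both kinds. Kat2b (PCAF) and Kat7 (HBO1) fell and Kat6a (MOZ) and Kat14, a subunit of the ATAC complex, rose in both kinds, and Kat6b was called lower in BCB, where the call was lost without any of untreated arrays 1, 2 and 3 or treated arrays 2 and 3 (−0.26 to −0.21), after quantile normalization (−0.08) and with its probe sets averaged (−0.05). The counts were 2 higher and 3 lower of 8 in BCB (median −0.03) and 2 and 2 in BBB (median 0.06), and with the hybridization scale 1 and 6 in BCB and 1 and 5 in BBB. Kat2b read 9, 38.6, 20.6 and 20.1 in BCB with amanitin, against 316.6, 361.9, 372.8 and 245.6 in untreated BCB. In BBB, Kat2b read 19.6, 16.5, 28.1 and 11 with amanitin, against 280.7, 333.1, 237.3 and 230.4 untreated. Treated and untreated arrays did not overlap (−3.2 in BCB and −3.05 in BBB). Of the 3 tested probe sets of Kat2b, 2 were called lower in BCB and 3 in BBB, the least change at −0.24 and −0.48. Its paralogue Kat2a (GCN5) averaged 642 ± 63.5 with amanitin and 691 ± 39.1 untreated in BCB, and 649 ± 31.7 and 626 ± 84.9 in BBB (SD, n = 4), with no call in either kind (−0.11 in BCB and 0.06 in BBB). Kat7 read 151.9, 139.6, 126.1 and 128.0 in BCB with amanitin, against 756.9, 763.1, 769.7 and 773.8 in untreated BCB. In BBB, Kat7 read 128.8, 120.2, 169.6 and 197.2 with amanitin, against 685.0, 692.0, 691.5 and 626.6 untreated. It fell with no overlap (−2.36 in BCB and −2.04 in BBB). Of the 3 tested probe sets of Kat7, this 1 alone was called, and the highest of the others was at 0.36 in BCB and 0.17 in BBB. Kat6a read 785.3, 699.3, 831.3 and 849.9 in BCB with amanitin, against 226.0, 207.9, 141.5 and 176.5 in untreated BCB. In BBB, Kat6a read 535.8, 671.1, 722.8 and 394.1 with amanitin, against 229.5, 228.0, 256.8 and 245.3 untreated. It was higher on every treated array (2 in BCB (SE 0.15, adjusted p = 4.68e-11) and 1.19 in BBB (SE 0.15, adjusted p = 3.2e-07)). Kat14 averaged 1559 ± 155 with amanitin and 1007 ± 24.5 untreated in BCB, and 1408 ± 99.5 and 899.5 ± 78.7 in BBB (0.62 in BCB and 0.64 in BBB) and is one of the genes whose probe sets disagreed. Kat5 (Tip60) and Kat8 (MOF, which acetylates lysine 16 of histone H4) were not called, at 0.06 in BCB and −0.12 in BBB for Kat5 and 0.05 in BCB and 0.11 in BBB for Kat8. The other tested probe set of Kat5 was called higher (1.04 in BCB and 0.79 in BBB), and with its probe sets averaged Kat5 was called higher at 0.55 in BCB (adjusted p = 0.00109) and 0.34 in BBB (adjusted p = 0.0312, limma). After quantile normalization Kat5 was called higher in BCB (0.4), and Kat8 (0.47) and Kat6b (0.23) were called higher in BBB.

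Of the 18 demethylases, the largest family, 11 fell and 3 rose in BCB (median −0.63), and 10 fell and 3 rose in BBB (median −0.68). On the hybridization scale 14 were lower and 1 higher in BCB and 15 and 2 in BBB. Both Kdm3 enzymes tested, which demethylate lysine 9, fell, as did 3 of the 4 Kdm5 enzymes, which remove trimethylation of lysine 4 and act in mouse embryos at genome activation. Kdm5b read 146.3, 112.5, 131.8 and 122.2 in BCB with amanitin, against 3614.8, 3679.2, 3566.0 and 3257.2 in untreated BCB. In BBB, Kdm5b read 200.9, 128.9, 155.0 and 140.0 with amanitin, against 3525.6, 3551.2, 3399.7 and 3466.6 untreated. Its treated and untreated arrays were far apart in both kinds, with a change of −4.62 in BCB (SE 0.11, adjusted p = 6.93e-20) and −4.36 in BBB (SE 0.11, adjusted p = 1.33e-19). All 4 tested probe sets of Kdm5b were called lower, the least at −0.66 in BCB and −1.03 in BBB. Kdm5a read 24.3, 30.2, 11.7 and 27.6 in BCB with amanitin, against 326.5, 377.4, 371.5 and 315.3 in untreated BCB. In BBB, Kdm5a read 35.5, 14.7, 18.9 and 7.9 with amanitin, against 378.7, 428.1, 321.2 and 330.2 untreated. It followed the same split, at −3.23 in BCB and −3.48 in BBB. Of the 4 tested probe sets of Kdm5a, 3 were called lower in each kind, the least change at −0.19 in BCB and −0.16 in BBB. Kdm5d, on the Y chromosome, averaged 4.82 ± 3.03 with amanitin and 30.9 ± 1.93 untreated in BCB, and 3.15 ± 2.89 and 35.5 ± 11.4 in BBB (SD, n = 4), so the treated arrays were at the dim end, and it changed by −1.18 in BCB and −1.41 in BBB. Kdm5c, its X-linked relative, was not called from its brightest probe set (−0.17 in BCB and −0.02 in BBB).

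Kdm3a read 78, 127.6, 106.5 and 67.6 in BCB with amanitin, against 888.4, 1011.3, 988.7 and 858.2 in untreated BCB. In BBB, Kdm3a read 104.7, 94.4, 143.5 and 23.9 with amanitin, against 980.3, 1012.8, 936.0 and 880.8 untreated. No treated array reached an untreated one, and the change was −3.13 in BCB and −3.33 in BBB. Kdm3b read 25.7, 11.3, 6.5 and 7.2 in BCB with amanitin, against 229.9, 234.7, 254.2 and 236.6 in untreated BCB. In BBB, Kdm3b read 16, 21.8, 19 and 12.6 with amanitin, against 232.1, 252.2, 284.1 and 270.1 untreated. It too had no overlap between treated and untreated arrays, at −3.2 in BCB and −3.05 in BBB. The other tested probe set of Kdm3b was not called, at −0.24 in BCB and −0.29 in BBB. The Kdm4 enzymes act on lysines 9 and 36. Kdm4c averaged 4.1 ± 5.73 with amanitin and 107 ± 12.3 untreated in BCB, and 6.92 ± 5.39 and 90 ± 13.3 in BBB (SD, n = 4), a change of −2.65 in BCB and −2.23 in BBB, and Kdm4b changed by −1.17 in BCB and −1.25 in BBB. Kdm4a, at −0.36 in BCB and −0.31 in BBB, was called in BCB and not in BBB. The call in BCB was lost without untreated array 1 or 3 or treated array 1 or 4 (−0.35 to −0.28) and after quantile normalization (−0.11), and BBB gained one without treated BBB array 1 or treated BCB array 1, 2 or 4 (−0.35 to −0.31). Kdm4d was not called (0.26 in BCB and −0.31 in BBB), though without treated BBB array 1 or 4 it was in BBB (−0.4 and −0.36), and after quantile normalization it was called higher in BCB (0.4). Kdm8 (JMJD5) fell as well (−1.78 in BCB and −1.62 in BBB).

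The amine oxidase Kdm1a (LSD1), which demethylates lysine 4, read 197.8, 191.8, 191.4 and 201.7 in BCB with amanitin, against 328.2, 337.7, 299.2 and 254.9 in untreated BCB. In BBB, Kdm1a read 228.7, 179.0, 230.6 and 176.7 with amanitin, against 355.5, 406.1, 326.1 and 324.5 untreated. It was lower on all treated arrays (−0.59 in BCB (SE 0.12, adjusted p = 0.000172) and −0.75 in BBB (SE 0.12, adjusted p = 9.11e-06)). Kdm1b, known for its part in setting maternal imprints in mouse oocytes, averaged 535 ± 59.4 with amanitin and 480.3 ± 72.8 untreated in BCB, and 457 ± 49.9 and 504 ± 54.7 in BBB (SD, n = 4). It was not called (0.16 in BCB and −0.14 in BBB), though after quantile normalization it was called higher in BCB (0.31). Kdm2b, which binds unmethylated CpG islands, fell (−0.66 in BCB and −0.6 in BBB), and Kdm2a was not called (−0.07 in BCB and 0.16 in BBB). After quantile normalization Kdm2a was called higher in BBB (0.47). Of its 4 tested probe sets, 1 was called lower in each kind, with the lowest at −0.72 in BCB and −0.66 in BBB. The rises in the family were the demethylases of lysine 27, Kdm6b and Kdm6a, together with Kdm7a. Kdm6b read 1486.3, 1266.7, 1424.0 and 1514.9 in BCB with amanitin, against 709.2, 615.3, 583.0 and 636.5 in untreated BCB. In BBB, Kdm6b read 1516.2, 1530.4, 1546.7 and 1586.3 with amanitin, against 630.0, 615.9, 717.9 and 618.0 untreated. Its arrays did not overlap, at 1.14 in BCB (SE 0.09, adjusted p = 4.09e-11) and 1.24 in BBB (SE 0.09, adjusted p = 8.9e-12). Kdm6a, X-linked, changed by 0.67 in BCB and 0.42 in BBB and Kdm7a by 0.9 in BCB and 0.98 in BBB. With its probe sets averaged Kdm6a was not called in either kind, at 0.14 in BCB (adjusted p = 0.252) and −0.11 in BBB (adjusted p = 0.375), and quantile normalization ended its call in BBB (0.14). On the poly-A scale none of the 18 demethylases was called higher.

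**Figure D3:**
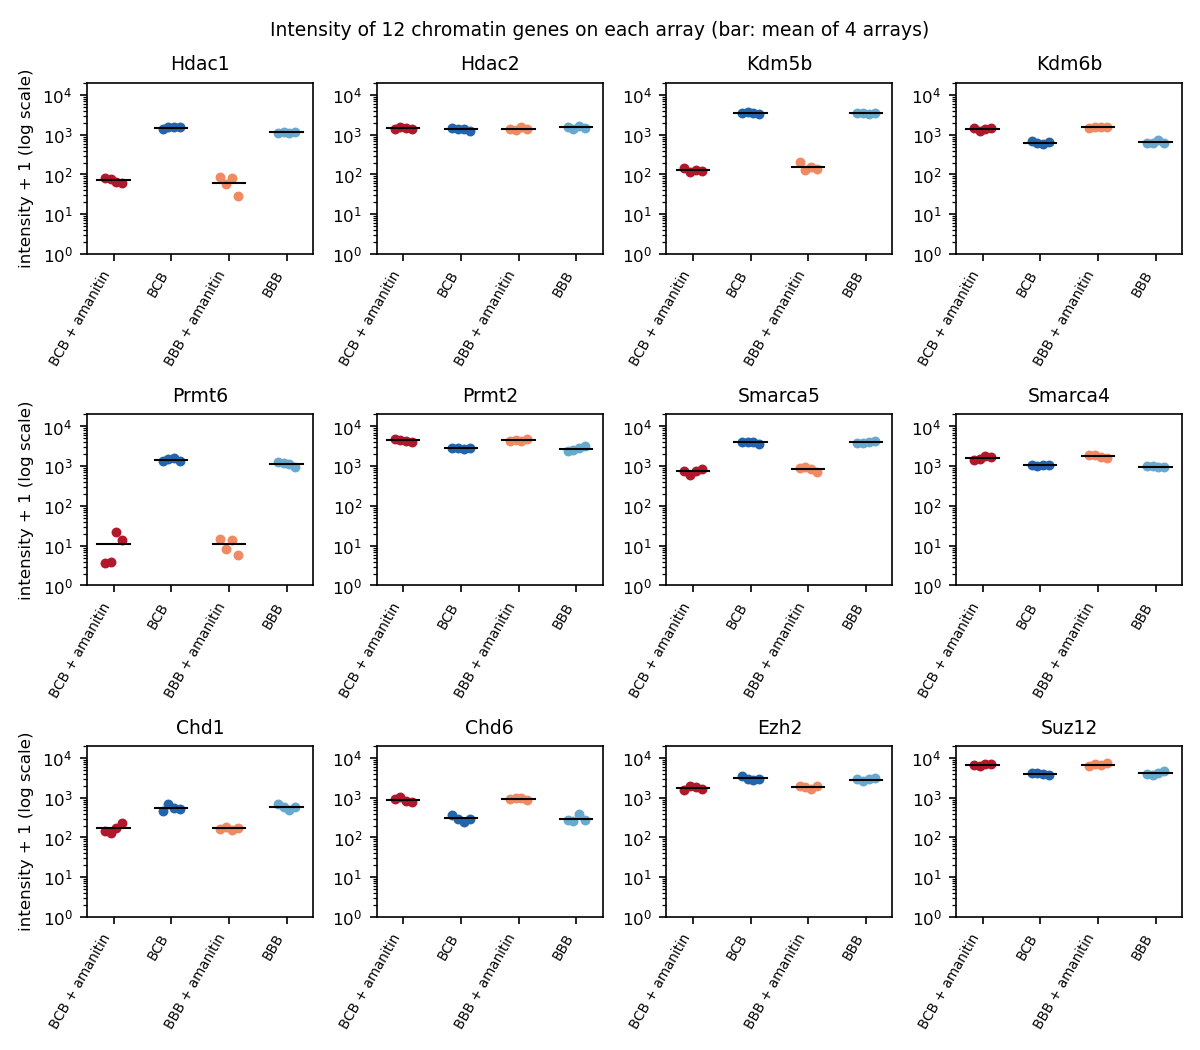
Intensity plus 1 (log axis) on each of the 16 arrays for 12 genes, with BCB with amanitin, untreated BCB, BBB with amanitin and untreated BBB from left to right; points are arrays and bars are means of 4. Hdac1, Kdm5b, Prmt6, Smarca5 and Chd1 are far lower with amanitin, Hdac2 overlaps between groups, and Kdm6b, Prmt2, Smarca4, Chd6 and Suz12 are higher with amanitin on the authors' scale, which is not kept on the poly-A scale.

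Of the MLL family, most of whose members methylate lysine 4 of histone H3, Kmt2b and Kmt2c rose and Kmt2e fell in both kinds. Kmt2d was called higher in BCB. The counts were 3 higher and 1 lower of 5 in BCB (median 0.23) and 2 and 1 in BBB (median 0.17); on the hybridization scale none was higher and 3 lower in BCB, with 2 and 2 in BBB. Kmt2b, which the mouse oocyte needs for bulk trimethylation of lysine 4, read 1186.5, 1273.3, 1133.2 and 1321.6 in BCB with amanitin, against 576.0, 575.7, 587.5 and 614.9 in untreated BCB. In BBB, Kmt2b read 1147.1, 1322.6, 1125.2 and 1141.9 with amanitin, against 510.4, 577.4, 659.1 and 591.0 untreated. The treated arrays were above the untreated ones in both kinds (1.04 in BCB (SE 0.09, adjusted p = 5.3e-10) and 1 in BBB (SE 0.09, adjusted p = 9.99e-10)). Kmt2c (MLL3) read 4741.6, 4563.1, 4878.8 and 5409.5 in BCB with amanitin, against 2483.9, 2805.6, 2427.0 and 2763.8 in untreated BCB. In BBB, Kmt2c read 5312.4, 6173.5, 4917.3 and 5695.3 with amanitin, against 2406.0, 2524.5, 2777.4 and 2732.9 untreated. It too had no overlap (0.9 in BCB and 1.07 in BBB). Kmt2d (MLL4), at 0.23 in BCB and 0.17 in BBB, was called in BCB and not in BBB. The call in BCB was lost without untreated array 1 or 3 or treated array 1, 2 or 3 (0.18 to 0.22), and BBB gained one without treated BBB array 1 (0.22) or treated BCB array 4 (0.17). Quantile normalization also ended the call in BCB (0.12). The other tested probe set of Kmt2d, a dimmer one, rose by 1.9 in BCB and 1.79 in BBB, and with its probe sets averaged the change in BBB was 0.98 (limma adjusted p = 4.75e-09). Kmt2e changed by −0.4 in BCB and −0.66 in BBB; without untreated BCB array 4 or treated BCB array 3 its call in BCB was lost, at −0.32 in each case, and quantile normalization ended it in both kinds (−0.14 in BCB and −0.31 in BBB). Kmt2a (MLL1) was not called with amanitin (−0.28 in BCB and 0.08 in BBB), though after quantile normalization it was called higher in BBB (0.34).

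The Setd genes fell in 6 of 10 and rose in 3 of 10 in both kinds, with medians of −0.6 in BCB and −0.56 in BBB and none of the changes reaching 2-fold. On the hybridization scale 7 were lower and none higher in BCB, and 6 and 1 in BBB. Setd2, which trimethylates lysine 36 of histone H3 in transcribed genes, read 516.2, 618.2, 555.4 and 611.6 in BCB with amanitin, against 1034.7, 1112.5, 1297.4 and 1018.6 in untreated BCB. In BBB, Setd2 read 635.7, 669.0, 568.8 and 720.6 with amanitin, against 1062.1, 984.7, 912.5 and 879.7 untreated. Its treated arrays all lay below the untreated ones (−0.93 in BCB (SE 0.10, adjusted p = 2.1e-08) and −0.56 in BBB (SE 0.10, adjusted p = 4.25e-05)). Setdb1 and Setdb2 methylate lysine 9, and Setdb1 silences retrotransposons in mouse. Setdb1 read 310.5, 419.4, 397.3 and 440.3 in BCB with amanitin, against 625.0, 612.2, 500.0 and 605.6 in untreated BCB. In BBB, Setdb1 read 425.8, 321.9, 333.3 and 363.5 with amanitin, against 547.3, 562.2, 561.2 and 525.8 untreated. It fell with no overlap (−0.57 in BCB and −0.59 in BBB), and Setdb2 fell too (−0.91 in BCB and −0.86 in BBB). Setd1a and Setd1b, the catalytic subunits of the COMPASS complexes, went opposite ways: Setd1a changed by −0.67 in BCB and −0.56 in BBB and Setd1b by 0.53 in BCB and 0.46 in BBB, though a second probe set of Setd1b was called lower and the average of its probe sets was −0.13 in BCB (not called) and −0.28 in BBB (called lower). Setd6 averaged 604 ± 108 with amanitin and 329 ± 22.3 untreated in BCB, and 597 ± 76 and 314 ± 64.4 in BBB (SD, n = 4) and rose (0.83 in BCB and 0.9 in BBB). Setd4 rose and Setd5 fell with overlapping arrays in both kinds, and without untreated BCB array 3 the call of Setd4 in BCB was lost (0.31). Quantile normalization ended the call of Setd5 in BBB (−0.3). Setd7 fell (−0.63 in BCB and −0.66 in BBB) and was dim, with means of 7.92 to 23.8, and averaging its probe sets ended the call in both kinds (−0.21 in each). Setd3, the histidine methyltransferase of actin, was not called, though after quantile normalization it was called higher (0.3 in BCB and 0.38 in BBB). The other tested probe set of Setd3 went the other way, called lower in BBB (−0.98) and not called in BCB (−0.49).

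The lysine 9 methyltransferases outside the Setd family split, with Ehmt1 and Suv39h2 higher and Ehmt2 lower in both kinds (medians 0.46 in BCB and 0.76 in BBB; −0.3 and 0.25 on the hybridization scale). Ehmt1 (GLP) and Ehmt2 (G9a) form one complex that writes mono- and dimethylation. Ehmt1 read 878.0, 723.4, 921.5 and 699.9 in BCB with amanitin, against 626.0, 561.4, 608.2 and 518.7 in untreated BCB. In BBB, Ehmt1 read 837.3, 854.6, 802.0 and 913.8 with amanitin, against 455.8, 567.8, 497.3 and 466.5 untreated. The treated arrays were all above the untreated ones (0.46 in BCB (SE 0.11, adjusted p = 0.00051) and 0.76 in BBB (SE 0.11, adjusted p = 8.68e-07)). Ehmt2 read 12.6, 21.4, 11.4 and 32.1 in BCB with amanitin, against 68.5, 93.6, 97.5 and 86.8 in untreated BCB. In BBB, Ehmt2 read 28.3, 47.4, 55.1 and 39.6 with amanitin, against 87.1, 74.5, 74.8 and 70.5 untreated. Here the treated arrays were all below the untreated ones (−1.57 in BCB (SE 0.18, adjusted p = 6.5e-08) and −0.68 in BBB (SE 0.18, adjusted p = 0.00229)). The other tested probe set of Ehmt2, a dimmer one, was called higher, and with both averaged no change of Ehmt2 was called, at −0.18 in BCB (adjusted p = 0.227) and 0.25 in BBB (adjusted p = 0.0987). Quantile normalization ended the call in BBB as well (−0.35). Suv39h2, which trimethylates lysine 9 at pericentric heterochromatin, read 528.2, 507.1, 624.0 and 642.2 in BCB with amanitin, against 229.7, 254.6, 262.6 and 252.6 in untreated BCB. In BBB, Suv39h2 read 701.9, 555.9, 634.7 and 823.0 with amanitin, against 254.8, 241.6, 263.6 and 330.0 untreated. It was higher on all treated arrays (1.15 in BCB and 1.26 in BBB).

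The 4 core genes of PRC2, which methylates lysine 27, divided evenly: Suz12 and Ezh1 rose and Ezh2 and Eed fell in both kinds. On the hybridization scale both falls stood and neither rise did, and on the poly-A scale all 4 were lower. Ezh2, the main catalytic subunit, read 1576.2, 1946.4, 1847.5 and 1610.0 in BCB with amanitin, against 3551.6, 2880.7, 2832.9 and 2983.8 in untreated BCB. In BBB, Ezh2 read 1951.7, 1866.2, 1658.4 and 2006.6 with amanitin, against 2874.4, 2650.4, 2903.0 and 3056.7 untreated. It fell with no overlap (−0.81 in BCB (SE 0.09, adjusted p = 2.1e-08) and −0.62 in BBB (SE 0.09, adjusted p = 1.41e-06)). Eed, which binds the mark and stimulates the enzyme, read 1112.6, 1172.2, 993.7 and 1018.5 in BCB with amanitin, against 2043.6, 1809.2, 1802.7 and 1881.6 in untreated BCB. In BBB, Eed read 1184.3, 1293.4, 1190.1 and 1124.5 with amanitin, against 1859.9, 1852.4, 1914.3 and 1996.1 untreated. It too was lower on every treated array (−0.8 in BCB and −0.66 in BBB). Suz12, the scaffold subunit, read 6486.5, 6162.2, 7025.6 and 7220.9 in BCB with amanitin, against 4267.9, 4084.5, 3942.1 and 3796.3 in untreated BCB. In BBB, Suz12 read 6179.5, 7136.7, 6657.3 and 7336.9 with amanitin, against 3975.8, 3799.4, 4261.3 and 4569.9 untreated. It was higher on every treated array (0.74 in BCB (SE 0.07, adjusted p = 2.51e-09) and 0.72 in BBB (SE 0.07, adjusted p = 4.11e-09)), and each of its 6 tested probe sets was called higher. Ezh1, the paralogue of Ezh2, averaged 1182 ± 62.6 with amanitin and 834 ± 17.8 untreated in BCB, and 1271 ± 50.5 and 843 ± 91.9 in BBB (SD, n = 4), a change of 0.49 in BCB and 0.59 in BBB.

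The arginine methyltransferases held the deepest fall of all 88 genes, as read from the brightest probe sets, and a single rise. Prmt6, Prmt1 and Prmt5 fell in both kinds and Prmt7 and Prmt9 in BCB, while Prmt2 rose, giving 5 lower and 1 higher of 7 in BCB (median −0.9) and 3 and 1 in BBB (median −0.33); on the hybridization scale 6 were lower in BCB, 5 in BBB and none higher. Prmt6, which methylates arginine 2 of histone H3, read 2.6, 2.8, 21.3 and 13.2 in BCB with amanitin, against 1331.6, 1514.0, 1621.1 and 1356.2 in untreated BCB. In BBB, Prmt6 read 13.8, 7.2, 13.2 and 4.8 with amanitin, against 1276.8, 1219.5, 1105.9 and 929.9 untreated. The treated arrays were at the dim end, between 2.6 and 21.3, where the 40th percentile of an array ran between 10.8 and 14.1. The change was −5.88 in BCB (SE 0.19, adjusted p = 6.55e-18) and −5.49 in BBB (SE 0.19, adjusted p = 2.23e-17). Its size depends on the pseudocount: with 1 in place of 16 it was −7.48 in BCB and −6.82 in BBB, and with 64 it was −4.36 and −4.01. It depends on the probe set as well. The other tested probe set of Prmt6 was called lower at −1.35 in BCB and −1.05 in BBB. With both averaged the change was −3.62 in BCB and −3.27 in BBB, which is less deep than that of Hdac1.

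Prmt1, the main asymmetric arginine methyltransferase of mammalian cells, read 49.1, 39.2, 37.7 and 46 in BCB with amanitin, against 480.7, 530.6, 520.4 and 501.2 in untreated BCB. In BBB, Prmt1 read 43.3, 44.4, 52 and 19.1 with amanitin, against 597.0, 552.4, 353.7 and 400.6 untreated. The treated arrays lay far below the untreated ones (−3.16 in BCB and −3.15 in BBB). Prmt5, which forms symmetric dimethylarginine, read 59.5, 81, 87 and 85.9 in BCB with amanitin, against 400.3, 560.4, 474.3 and 431.2 in untreated BCB. In BBB, Prmt5 read 88.9, 97.1, 132.2 and 53.1 with amanitin, against 431.5, 497.7, 400.9 and 452.2 untreated. It fell in the same way (−2.35 in BCB and −2.13 in BBB). Prmt2 read 4859.0, 4510.9, 4413.3 and 3970.0 in BCB with amanitin, against 2844.9, 2844.1, 2705.0 and 2803.7 in untreated BCB. In BBB, Prmt2 read 4210.0, 4538.7, 4239.2 and 4954.2 with amanitin, against 2346.1, 2550.6, 2880.1 and 3135.2 untreated. It was higher on all treated arrays (0.66 in BCB (SE 0.08, adjusted p = 1.99e-07) and 0.72 in BBB (SE 0.08, adjusted p = 4.72e-08)), though quantile normalization ended the call in BCB (0.16, adjusted p = 0.0615). Prmt7 changed by −0.9 in BCB and −0.33 in BBB and Prmt9 by −0.86 in BCB and −0.18 in BBB, each called in BCB and not in BBB; the difference between kinds was not called for either. Without treated BBB array 1, Prmt7 was called lower in BBB too (−0.51), as it was with its probe sets averaged (−0.85). Prmt3, a methyltransferase of a ribosomal protein, was not called (0.13 in BCB and 0.17 in BBB), though after quantile normalization it was called higher (0.42 in BCB and 0.51 in BBB).

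Among the Smarc genes, the ISWI and SWI/SNF motors moved apart: Smarca5, the ISWI motor, fell and Smarca4 (BRG1) and Smarca2 (BRM), the alternative SWI/SNF motors, rose. The family count was 4 higher and 5 lower of 12 in BCB (median 0.07) and 4 and 6 in BBB (median −0.12), and on the hybridization scale 2 and 7 in BCB and 3 and 7 in BBB. Smarca5 read 771.8, 611.8, 746.4 and 844.6 in BCB with amanitin, against 4050.0, 4153.9, 4050.7 and 3717.4 in untreated BCB. In BBB, Smarca5 read 879.4, 931.5, 836.7 and 701.2 with amanitin, against 3946.4, 3787.3, 4177.6 and 4272.7 untreated. Treated and untreated arrays did not overlap (−2.41 in BCB (SE 0.09, adjusted p = 2.79e-16) and −2.26 in BBB (SE 0.09, adjusted p = 9.32e-16)). Smarca4, whose maternal product is needed for genome activation in mouse, read 1459.7, 1506.3, 1772.4 and 1705.2 in BCB with amanitin, against 1080.5, 986.9, 1062.0 and 1079.1 in untreated BCB. In BBB, Smarca4 read 1865.5, 1870.9, 1719.9 and 1596.7 with amanitin, against 987.8, 987.2, 948.3 and 966.8 untreated. It rose with no overlap (0.6 in BCB and 0.85 in BBB). Smarca2 read 2089.5, 1799.8, 2023.7 and 1873.9 in BCB with amanitin, against 830.8, 759.8, 768.5 and 981.8 in untreated BCB. In BBB, Smarca2 read 1771.0, 1847.0, 2124.2 and 2074.4 with amanitin, against 826.1, 687.9, 907.1 and 809.1 untreated. It was also higher on every treated array (1.21 in BCB and 1.26 in BBB), and on the hybridization scale the change of Smarca2 kept its call in both kinds.

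Smarcal1, an annealing helicase that acts at stalled replication forks, had the largest rise in BBB. It read 852.9, 763.6, 923.4 and 951.9 in BCB with amanitin, against 291.2, 246.8, 198.2 and 205.9 in untreated BCB. In BBB, Smarcal1 read 851.6, 951.0, 1131.7 and 959.8 with amanitin, against 227.4, 192.7, 223.8 and 248.5 untreated. The change was 1.83 in BCB (SE 0.12, adjusted p = 4.73e-12) and 2.05 in BBB (SE 0.12, adjusted p = 6.25e-13). Of the shared SWI/SNF subunits, Smarcc1 read 53, 66.9, 132.7 and 126.4 in BCB with amanitin, against 420.8, 469.2, 501.6 and 384.3 in untreated BCB. In BBB, Smarcc1 read 87.9, 102.3, 93.5 and 135.2 with amanitin, against 354.4, 505.4, 361.2 and 393.6 untreated. It fell (−2.13 in BCB and −1.8 in BBB), while its paralogue Smarcc2 averaged 119 ± 22.6 with amanitin and 75.2 ± 5.1 untreated in BCB, and 110.1 ± 13.7 and 61.3 ± 6.71 in BBB (SD, n = 4) and rose (0.55 in BCB and 0.7 in BBB). Smarcb1, the core subunit that grips the nucleosome, changed by −0.57 in BCB and −0.65 in BBB, called lower in both kinds, but after quantile normalization in neither (−0.24 in BCB and −0.28 in BBB). Smarcd1, at means of 4.1 and 6 with amanitin, changed by −1 in BCB and −1.19 in BBB, and its paralogues were brighter (Smarcd2) or dim throughout (Smarcd3, not called). Smarcd2 changed by −0.07 in BCB and −0.2 in BBB, with a call in BBB that was lost without untreated array 4 (−0.17), without treated array 2 or 3 (−0.18 each) and when arrays were centred on their medians (−0.11). Averaging its probe sets ended that call too (0.1), and after quantile normalization Smarcd2 was called lower in BCB as well (−0.62). Smarcad1 fell (−0.62 in BCB and −0.44 in BBB), a call that quantile normalization ended in BBB (−0.24). Smarce1 was not called (0.22 in BCB and 0.08 in BBB), though without treated BCB array 4 it was called higher in BCB (0.29), as it was after quantile normalization (0.34), and with its probe sets averaged it was called lower (−0.49 in BCB and −0.51 in BBB).

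The CHD remodellers rose in 7 of 10 in BCB, with 3 falls (median 0.74), and 5 in BBB, with 2 falls (median 0.49). On the hybridization scale 3 were higher and 3 lower in BCB and 5 and 4 in BBB, and on the poly-A scale none was higher. Chd1, which binds trimethylated lysine 4 and keeps chromatin open in mouse embryonic stem cells, read 148.1, 125.1, 175.1 and 226.9 in BCB with amanitin, against 474.9, 682.1, 546.7 and 519.6 in untreated BCB. In BBB, Chd1 read 160.8, 182.2, 151.5 and 175.2 with amanitin, against 688.5, 577.8, 498.8 and 578.3 untreated. All treated arrays were below the untreated ones (−1.65 in BCB (SE 0.15, adjusted p = 7.42e-10) and −1.71 in BBB (SE 0.15, adjusted p = 3.79e-10)). Of the 4 tested probe sets of Chd1, 3 were called lower and 1 was not called, at 0.29 in BCB and 0.41 in BBB. Its close relative Chd2 fell too (−0.66 in BCB and −0.72 in BBB), a call that averaging its probe sets ended in BCB (−0.12). Chd4, the main ATPase of NuRD, read 1347.5, 1127.4, 1177.3 and 1725.7 in BCB with amanitin, against 398.8, 427.0, 329.7 and 419.6 in untreated BCB. In BBB, Chd4 read 1189.3, 810.0, 1118.1 and 1009.2 with amanitin, against 480.4, 463.5, 584.7 and 477.0 untreated. It was higher on every treated array (1.72 in BCB (SE 0.13, adjusted p = 5.62e-11) and 1.01 in BBB (SE 0.13, adjusted p = 4.4e-07)). Chd6 read 928.5, 1018.2, 812.9 and 798.7 in BCB with amanitin, against 371.6, 288.1, 242.2 and 295.6 in untreated BCB. In BBB, Chd6 read 923.2, 1002.8, 994.6 and 884.9 with amanitin, against 277.9, 256.2, 377.3 and 276.8 untreated. It rose in both kinds (1.53 in BCB and 1.64 in BBB), as did Chd9 (1.37 in BCB and 1.41 in BBB), Chd7 (0.85 in BCB and 1.05 in BBB), a remodeller of enhancers, and Chd1l (0.96 in BCB and 0.92 in BBB), which poly-ADP-ribose activates. Chd3, the other broadly expressed NuRD ATPase, was called higher in BCB (0.36 in BCB and 0.06 in BBB), Chd8 lower in BCB (−0.4 in BCB and −0.06 in BBB) and Chd5 higher in BCB (0.63 in BCB and −0.13 in BBB). The Chd3 call was lost without untreated BCB array 3 (0.32) or treated BCB array 4 (0.27), and after quantile normalization Chd3 was called higher in BBB too (0.43). In BBB, 3 of the 4 tested probe sets of Chd8 were called lower, and so was Chd8 with its probe sets averaged (−0.55, limma adjusted p = 7.47e-05) and after quantile normalization (−0.19). The Chd5 call rests on dim values and was lost without treated BCB array 1, when it was 0.47 (adjusted p = 0.076).

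The kind of embryo made far less difference than amanitin. Of the calls in BBB, 27 of 27 rises (100%) and 35 of 36 falls (97.2%) were also called in BCB, which is 87.1% of the 31 rises and 87.5% of the 40 falls in BCB; 16 genes were called in neither (18.2%) and none in opposite directions. Over all 15274 genes, 90.6% of the rises and 90.2% of the falls in BBB were also called in BCB, which is 84.3% of the rises and 93.6% of the falls in BCB, and 21.5% were called in neither. Across the 88 genes, the changes in the 2 kinds correlated at 0.984, beside 0.977 over all genes, a description over genes that share the arrays' probe sets. Called in a single kind were Hdac10, Kat6b, Kdm4a, Kmt2d, Prmt7, Prmt9, Chd3, Chd5 and Chd8 in BCB and Smarcd2 in BBB. For none of them was the difference between kinds called.

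**Figure D4:**
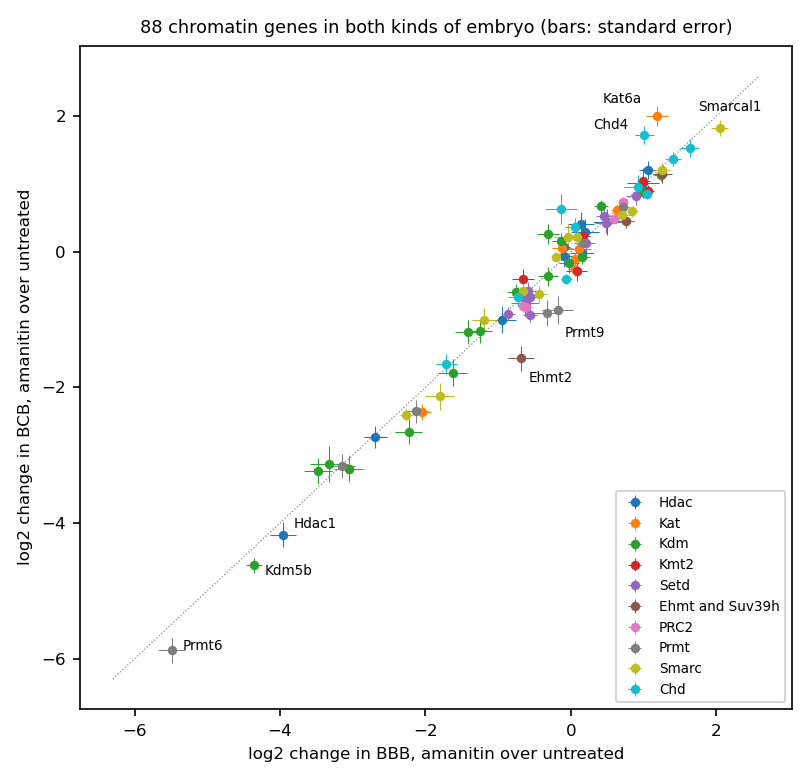
Change with amanitin in BBB (x axis) and BCB (y axis) of the 88 genes, in log2 units on the authors' scale, coloured by family, with bars of 1 standard error and a dotted line where both are equal. The points follow the line between Prmt6 at the lower left and Smarcal1 at the upper right; Kat6a and Chd4 lie above it and Ehmt2 and Prmt9 below it, and the difference was not called for any gene.

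Untreated BCB and BBB embryos were compared to ask whether the strain of the maternal pronucleus changes the level of these genes. None of the 88 was called with limma (0.655% of all genes were), and 7 had an unadjusted p under 0.05 (7.95%, beside 7.06% of all genes). Differences ran between −0.73 and 0.56, with a median standard error of 0.14. Kmt2a had the smallest adjusted p. It read 56, 64.7, 66.4 and 59.3 in untreated BCB, against 32.3, 40.2, 38 and 35.4 in untreated BBB, a difference of 0.56 (95% interval 0.26 to 0.87, adjusted p = 0.101). Although its arrays did not overlap, the test was not passed on the authors' scale. Kmt2a was called higher in BCB under 4 alternatives: on the hybridization scale (adjusted p = 0.0365), with its probe sets averaged (0.0408), with only these 2 groups in the limma fit (0.034) and with array weights (0.0158). Chd5 read 4.4, 2.9, 3.8 and 4.4 in untreated BCB, against 15.4, 21.9, 25.1 and 8.4 in untreated BBB, a difference of −0.73 (95% interval −1.2 to −0.27, adjusted p = 0.22), at dim levels. It was called lower in BCB on the poly-A scale (−1.03, adjusted p = 0.00706), with only these 2 groups in the limma fit (adjusted p = 0.0357) and with array weights (0.0465), and Hdac1 was called higher with only these 2 groups (0.41). Hdac11 read 75.1, 85.8, 85.3 and 110.8 in untreated BCB, against 120.7, 130.9, 134.8 and 122.8 in untreated BBB, or −0.45 (95% interval −0.79 to −0.12, adjusted p = 0.399).

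The same comparison with amanitin asks about differences where new transcription is blocked. Again none of the 88 genes was called (limma; 0.0786% of all genes were), with 13 at an unadjusted p under 0.05 (14.8%, beside 10.7% of all genes). Chd8 read 865.0, 922.0, 886.5 and 978.5 in treated BCB, against 1264.8, 1071.9, 1134.4 and 1180.7 in treated BBB, a difference of −0.34 (95% interval −0.5 to −0.18, adjusted p = 0.0814). Its arrays did not overlap. Ehmt2 read 12.6, 21.4, 11.4 and 32.1 in treated BCB, against 28.3, 47.4, 55.1 and 39.6 in treated BBB, or −0.74 (95% interval −1.12 to −0.36, adjusted p = 0.122). Prmt9 read 2.4, 18.7, 3.6 and 2.7 in treated BCB, against 16.9, 30, 33 and 18.3 in treated BBB, or −0.86 (95% interval −1.3 to −0.42, adjusted p = 0.123), with treated BCB array 2 apart from the other 3. Without that array Prmt9 was called lower in BCB (−1.08, adjusted p = 0.0389), and without treated BCB array 4 Chd8 (−0.38, adjusted p = 0.0403) and Ehmt2 (−0.9, adjusted p = 0.0331) were.

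The interaction asks whether amanitin acted differently in BCB than in BBB, and it too gave no call among the 88 genes with limma (0.255% of all genes), with 11 at an unadjusted p under 0.05 (12.5%, beside 8.05%). The smallest adjusted p-values were those of Chd4, with a change in BCB minus that in BBB of 0.71 (95% interval 0.32 to 1.1, adjusted p = 0.171), and Kat6a, at 0.81 (95% interval 0.36 to 1.26, adjusted p = 0.172). Both rose with amanitin in each kind. Their probe sets did not all differ this way: the other tested probe set of Kat6a had −0.51 and was not called with amanitin in BCB (0.31), and 1 of the 3 tested probe sets of Chd4 had −0.22. Ehmt2, which fell in each kind, had −0.88 (95% interval −1.42 to −0.35, adjusted p = 0.236). These intervals exclude 0 before adjustment for the 31953 probe sets tested and not after it.

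A gene's probe sets did not always move together. Of 57 genes with at least 2 tested probe sets, 22 in BCB and 20 in BBB had all of them called in 1 direction, 27 and 26 had some called in 1 direction, and 3 and 1 had none called. Opposite calls occurred in 5 genes in BCB (Kat14, Kdm5c, Kdm7a, Setd1b and Ehmt2) and 10 in BBB, which were these and Kat2a, Kdm6a, Prmt3, Smarca5 and Smarcd2. Smarca5 had probe sets at −2.32 to 0.43 in BBB and Ehmt2 at −1.57 to 1.21 in BCB. Kdm7a had probe sets at −1.26 to 0.9 in BCB, with 3 higher and 1 lower of 5, and Kdm5c at −0.78 to 0.65, with 1 higher and 3 lower of 6. Which transcripts these probe sets measure was not tested.

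**Figure D5:**
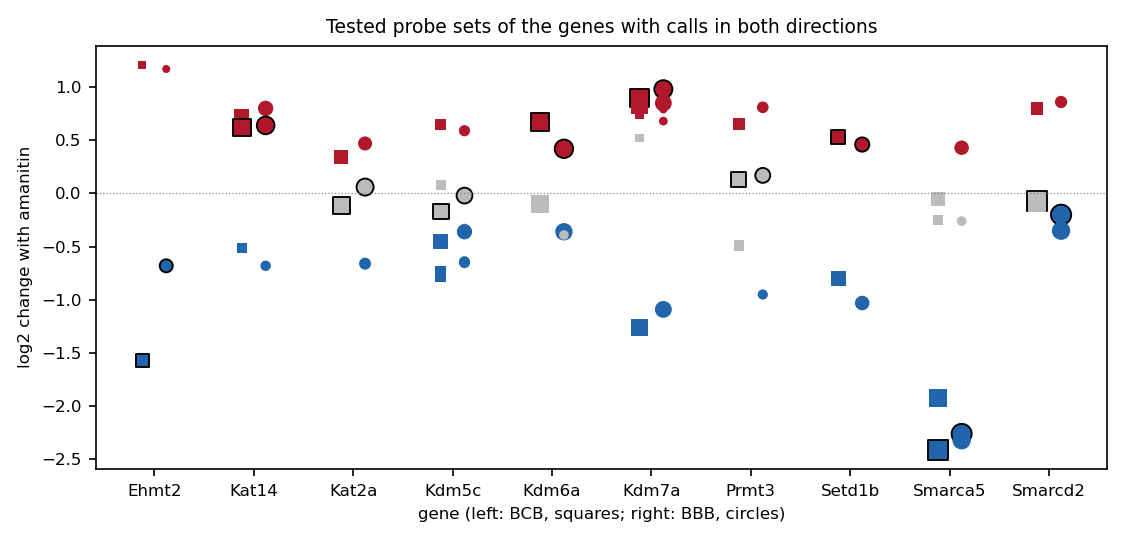
Change with amanitin of each tested probe set of the 10 genes with calls in both directions, in log2 units on the authors' scale; squares at left are BCB, circles at right are BBB, red is higher, blue lower and grey not called, a larger symbol is a brighter probe set in untreated embryos, and a black outline marks the probe set read for the gene. The brightest probe set of Smarca5 lies near −2.26 in BBB and another at 0.43, and those of Ehmt2 lie at −1.57 and 1.21 in BCB.

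Partners of these enzymes, in 10 lists of 112 genes of which 105 were tested, had more rises than falls on the authors' scale, as had all genes: 57 higher and 33 lower in BCB (54.3% and 31.4%, beside 39.9% and 31.9% of all genes; median 0.36) and 56 and 34 in BBB (53.3% and 32.4%, beside 37.1% and 33.1%; median 0.33). None was called between kinds or in the interaction. The NuRD, Sin3 and CoREST partners, which work with Hdac1, Hdac2 and Chd4, counted 7 higher and 5 lower of 13 in BCB and 8 and 5 in BBB. Mta2, a NuRD subunit, fell (−4.48 in BCB and −4.61 in BBB), while its paralogue Mta1 changed by 2.02 and 1.46 and Mbd3, another subunit, by 1.56 and 1.68. The PRC2 accessory list counted 4 higher and 2 lower of 7 in both kinds; Rbbp4, a histone chaperone shared by PRC2 and NuRD, fell (−3.83 in BCB and −3.81 in BBB) and Aebp2 changed by 1.02 and 1.2. Polycomb repressive complex 1 counted 9 higher and 4 lower of 16 in BCB and 9 and 5 in BBB, with Pcgf5 at −3.06 and −2.97 and Phc1 at 1.55 and 1.67.

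The SWI/SNF partners counted 9 higher and 5 lower of 16 in BCB and 8 and 5 in BBB, from Dpf2 (−1.95 in BCB and −2.05 in BBB) to Bcl7b (1.17 and 1.64). Partners in ISWI and INO80 complexes counted 4 higher and 4 lower of 11 in BCB and 3 and 4 in BBB. Baz1a, which pairs with Smarca5, fell (−2.48 in BCB and −2.42 in BBB), and the paired ATPases Ruvbl1 (−2.43 and −2.81) and Ruvbl2 (1.76 and 1.85) went opposite ways. Of the COMPASS and MLL partners, 6 of 10 rose in both kinds and 2 fell in BCB and 3 in BBB, from Ash2l (−1.04 in each) to Wdr82 (1.18 in BCB and 0.92 in BBB). Heterochromatin proteins counted 3 higher and 4 lower of 8 in BCB and 3 and 3 in BBB. Trim28, the co-repressor that recruits Setdb1, fell (−2.87 in BCB and −2.93 in BBB), and Cbx1 changed by 1.52 and 1.34.

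The other acetyltransferases and bromodomain readers counted 6 higher and 3 lower of 9 in both kinds, from Ep300 (−1.16 in BCB and −1.25 in BBB), the acetyltransferase of enhancers, to Ncoa1 (1.44 and 1.63). Other methyltransferases counted 5 higher and 1 lower of 8 in BCB and 6 and 1 in BBB, with the highest list medians, 0.98 and 0.97; Dot1l changed by 1.35 and 1.37 and Prdm2 by −0.99 and −0.88. Sirtuins, the NAD-dependent deacetylases, counted 4 higher and 3 lower of 7 in BCB and 3 and 3 in BBB. Sirt1 fell (−3.79 in BCB and −3.67 in BBB), and Sirt2 changed by 2.02 and 2.01.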

How the data were processed

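Each of the 4 groups had 4 one-colour arrays. Per the labels' protocols, a Picopure kit was used for extraction and an ENZO kit for biotin labelling. The authors deposited linear intensity values with 1 decimal for 45037 transcript and 64 control probe sets. The values show that they scaled each array to the same trimmed mean; the software is not given in the sources used here. Array number limits the precision, and no detection call was used.

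Symbols came from the platform annotation (34945 probe sets with 1 symbol, 932 with several, 9160 with none; not updated here). From the deposited intensity, log2(value + 16) was computed, so fold changes of dim genes are understated. Testing was limited to probe sets reaching the 40th percentile of 4 or more arrays (31953 probe sets, 15274 genes). All 16 arrays entered 1 limma 3.58.1 (R 4.3.3) fit with a mean per group, empirical Bayes with trend, and Benjamini-Hochberg adjusted p under 0.05 over all tested probe sets. The 5 contrasts were amanitin against untreated in each kind, BCB against BBB untreated and with amanitin, and the interaction. The fit was tested on simulated data.

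The members, gene lists and tests were chosen with earlier results of these data known. Genes named in full were a panel, each family's largest called rise and fall without overlap and its brightest gene, up to 10 calls (or the 3 smallest adjusted p) in contrasts between kinds, and genes with opposite probe sets; other members are given by their change. Alternatives covered scaling, pseudocount, filter, probe set choice, fit, replicate block and leaving out arrays; scaling to poly-A controls without Trpn was added after seeing the data. Samples with the same replicate number did not deviate together (correlations −0.087 to 0.107).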

Additional observations from a re-analysis of the deposited data

Results flagged for a closer look

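Of 248 groups of 4 arrays checked over the 62 genes named by rule, 9 held an array far from the other 3 by Dixon's test, and chance flags about 1 in 20. In treated BCB, Kmt2d read 1091.1 on array 4 against 1406.9 to 1465.7 on the others, and Prmt9 read 18.7 on array 2 against 2.4 to 3.6. In untreated BCB, Kat5 read 109.2 on array 2 against 115.6 to 116.6, and Setdb1 read 500.0 on array 3 against 605.6 to 625.0. In treated BBB, Kmt2b read 1322.6 on array 2 against 1125.2 to 1147.1. In untreated BBB, array 3 stood apart for Chd4 (584.7 against 463.5 to 480.4), Kdm6b (717.9 against 615.9 to 630.0) and Kmt2d (1056.1 against 1092.1 to 1094.9), and Smarcd1 read 26.6 on array 2 against 35.9 to 36.8.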

How the results depend on the processing

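The calls with amanitin, 31 higher and 40 lower in BCB and 27 and 36 in BBB, stayed within 1.5 times under changed pseudocounts, filters, probe set choice, quantile or median scaling, array weights and each array left out. They moved with the hybridization controls (9 higher in BCB and 17 in BBB), the poly-A controls with Trpn (1 and 1 higher, 78 and 79 lower) and, chosen after seeing the data, without Trpn (0 and 0 higher, 80 and 84 lower); a minimum of 2-fold left 11 higher and 21 lower in BCB and 12 and 19 in BBB. With the replicate number as a block, 30 were higher and 40 lower in BCB and 27 and 36 in BBB, and no call between kinds appeared; the numbers do not pair the samples. Quantile scaling ended 4 falls in BCB (Kat6b, Kdm4a, Smarcb1 and Kmt2e) and 5 in BBB (Smarcad1, Smarcb1, Kmt2e, Setd5 and Ehmt2), ended 2 rises in BCB (Prmt2 and Kmt2d) and 1 in BBB (Kdm6a), and added 7 calls in BCB and 9 in BBB. Averaging a gene's probe sets ended 6 calls in BCB and 5 in BBB, turned 1 in BBB (Setd1b) and added 2 and 8.

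Between untreated kinds, where 0 were called, Kmt2a was higher in BCB on the hybridization scale (1 gene), with the mean of probe sets (1) and with array weights (1), and with Hdac1 when only the 2 groups entered (2). Chd5 was lower in BCB on the poly-A scale with and without Trpn (1 and 1), with only those groups (1) and with array weights (1). With amanitin, leaving out single arrays gave 0 to 2 genes lower in BCB.

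Over all 88 genes, the sign of the change turned in 5 in BCB and 6 in BBB under quantile scaling, none of them called in either setting, in 24 and 16 on the hybridization scale, in 37 and 38 on the poly-A scale with Trpn, and in 7 and 10 with probe sets averaged. Those among the 62 genes named by rule that were called in at least 1 of the 2 settings were these, in log2 units. With a gene's probe sets averaged they were in BCB, Setd1b −0.13, Smarce1 −0.49; in BBB, Ehmt2 0.25, Kat5 0.34, Kdm6a −0.11, Setd1b −0.28, Smarcd2 0.1, Smarce1 −0.51. On the hybridization scale they were in BCB, Ehmt1 −0.3, Ezh1 −0.27, Hdac2 −0.7, Kat14 −0.15, Kat5 −0.62, Kat8 −0.59, Kdm1b −0.6, Kdm6a −0.11, Kmt2d −0.55, Prmt2 −0.12, Prmt3 −0.6, Setd1b −0.19, Smarca4 −0.17, Smarce1 −0.54, Suz12 −0.04; in BBB, Kat2a −0.45, Kdm2a −0.34, Kdm6a −0.1, Kmt2d −0.35, Setd1b −0.02, Smarce1 −0.43. On the poly-A scale with Trpn they were in BCB, Chd6 −0.01, Chd7 −0.73, Ehmt1 −1.09, Ezh1 −1.07, Hdac2 −1.5, Hdac3 −0.27, Hdac9 −0.28, Kat14 −0.95, Kat5 −1.33, Kat8 −1.24, Kdm1b −1.38, Kdm6a −0.91, Kdm6b −0.42, Kdm7a −0.67, Kmt2b −0.52, Kmt2c −0.68, Kmt2d −1.34, Prmt2 −0.92, Prmt3 −1.35, Setd1b −0.92, Setd6 −0.7, Smarca2 −0.36, Smarca4 −0.97, Smarce1 −1.32, Suv39h2 −0.38, Suz12 −0.85; in BBB, Chd4 −0.51, Chd7 −0.5, Ehmt1 −0.76, Ezh1 −0.94, Hdac3 −0.28, Hdac9 −0.4, Kat14 −0.89, Kat2a −1.46, Kat6a −0.3, Kat8 −1.16, Kdm2a −1.3, Kdm6a −1.12, Kdm6b −0.29, Kdm7a −0.56, Kmt2a −1.01, Kmt2b −0.52, Kmt2c −0.47, Kmt2d −1.36, Prmt2 −0.83, Prmt3 −1.27, Setd1b −0.97, Setd6 −0.6, Smarca2 −0.27, Smarca4 −0.69, Smarce1 −1.42, Suv39h2 −0.23, Suz12 −0.83. The cause of these changes was not tested. Arrays give no depth, and dim genes such as Chd5, Prmt9, Smarcd1 and Kdm4c are limited by signal over background.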
